A study of Mus musculus with 6 samples.

Results

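The genes described here are those of glucose sensing by MondoA and the α-arrestin genes: Txnip, Arrdc4, Arrdc3, Arrdc2, Arrdc1, Mlxip, Mlx and Mlxipl. They were chosen by symbol, and 7 of the 8 names had a row among the 18001 genes of the expression table. Txnip was not analysed here. The set was put together because Arrdc4 was among the 10 genes with the highest fold change between the groups compared below, so the values of these genes in that comparison are a description and carry no p-value.

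MondoA, encoded by Mlxip, is a transcription factor that responds to glucose 6-phosphate and related sugar phosphates and binds DNA as a heterodimer with Mlx. Its relative ChREBP, encoded by Mlxipl, also pairs with Mlx and is best known from liver and adipose tissue. Both recognise E-boxes, often as a spaced pair called a carbohydrate response element, and Txnip and Arrdc4 are the best known direct targets of MondoA. The products of both targets are α-arrestins, adaptor proteins that recruit NEDD4-family ubiquitin ligases to membrane proteins and reduce glucose uptake.

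NIH/3T3 cells, an immortalized mouse embryonic fibroblast line, were grown in DMEM with fetal calf serum and transfected with 4 pooled siRNAs that target Aldoa (siAldoa) or with non-targeting control siRNAs (siCtrl). Aldoa encodes aldolase A, the glycolytic enzyme that splits fructose 1,6-bisphosphate. RNA was taken 48 h after transfection, and poly(A) RNA was sequenced in 3 biological replicates per group. A bulk culture cannot tell fewer expressing cells from less RNA per cell, and a transient knockdown by siRNA leaves a remainder of the target.

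The promoter of Arrdc4 is shown because this gene has the extreme value of the set. The RefSeq sequence of GRCm38.p6 was read for 250 bases before the annotated start (chr7:68749239-68749488, minus strand, written 5′ to 3′), with the E-box CACGTG and the motif CCAAT, searched on both strands, in capitals.
Arrdc4 promoter: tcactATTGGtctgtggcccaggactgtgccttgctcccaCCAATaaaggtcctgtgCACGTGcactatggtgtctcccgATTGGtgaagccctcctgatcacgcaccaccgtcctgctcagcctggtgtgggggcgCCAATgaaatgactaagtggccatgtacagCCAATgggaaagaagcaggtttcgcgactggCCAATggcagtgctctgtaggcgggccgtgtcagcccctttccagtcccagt
This window held 1 E-box, at -193 to -188 from the start, and 6 CCAAT motifs between -245 and -48, none of which shared a base with another match. An E-box was present in 7.15% of the 32851 RefSeq windows of 300 bases (250 before and 50 after a start), and 37.4% of them held at least 1 CCAAT. Only 26 windows (0.0791%) held 6 or more CCAAT motifs, and that of Arrdc4 was the 1 window that held an E-box as well. The motifs were chosen with this sequence in view, so these shares are a description.

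All 7 genes with a row had RefSeq promoters, 10 windows in all, and E-boxes lay in those of Arrdc4, Mlx and 1 of the windows of Mlxipl. The full consensus of the carbohydrate response element, a pair of E-box-like hexamers 5 bases apart, was found in 9 of all windows (0.0274%) and in none of these 10. The E-boxes of the 3 genes are shown with 20 bases on either side, the E-box in capitals, together with those of genes from the lists below that were higher in siAldoa.
Arrdc4 (chr7:68749406-68749451, minus strand): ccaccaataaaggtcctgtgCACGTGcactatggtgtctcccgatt
Mlx (chr11:101087230-101087275, plus strand): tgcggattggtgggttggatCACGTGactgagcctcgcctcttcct
Mlxipl (chr5:135089772-135089817, plus strand): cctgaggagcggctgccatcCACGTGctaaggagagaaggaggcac
Klf11 (chr12:24651137-24651182, plus strand): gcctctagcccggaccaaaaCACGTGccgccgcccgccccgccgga
Pfkfb3 (chr2:11502118-11502163, minus strand): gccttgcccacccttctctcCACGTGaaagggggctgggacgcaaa
Fgf21 (chr7:45615515-45615560, minus strand): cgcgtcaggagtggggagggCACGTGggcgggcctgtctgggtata
Mxd4 (chr5:34187904-34187949, minus strand): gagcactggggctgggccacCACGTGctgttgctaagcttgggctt
The Mlx E-box began 40 bases and the Mlxipl E-box 98 bases before the start. Arrdc2 had 3 CCAAT motifs, Mlxip 2 and Arrdc3 1, the same site seen in 2 overlapping windows, all without an E-box. The window of Arrdc1 held neither motif.

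**Figure D1:**
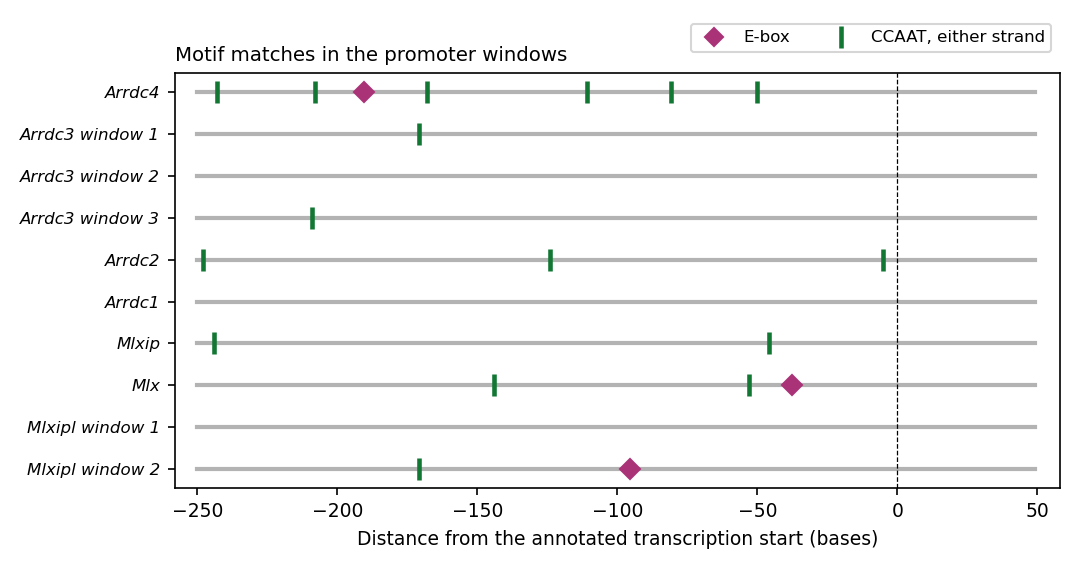
Motif matches in the 10 RefSeq promoter windows of the 7 genes, by distance from the annotated transcription start in bases, with diamonds for the E-box and bars for CCAAT on either strand. The Arrdc4 window holds 6 CCAAT motifs and 1 E-box, and an E-box is also present in the Mlx window and in 1 of the Mlxipl windows.

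Expression is given as CPM, a gene's reads scaled to the effective library size of its library, as deposited. Reads recovered from these values totalled 3692341 to 3771129 per library, so that 3 reads corresponded to 0.786 to 0.822 CPM, a limit that covers counting error only. The target checked the labels: Aldoa was at 521.5, 535.9 and 545.3 CPM in siCtrl and at 62.9, 69.2 and 72.0 CPM in siAldoa, or 12.7% of the control (log2 fold change -2.96, limma adjusted p = 1.3e-21). In both groups replicates 1 and 2 were closer to each other (chi-square per degree of freedom 1.12 in siCtrl and 1.11 in siAldoa) than either was to replicate 3 (2.07 to 3.24), and the spike-in RNA was added at a different step in replicate 1 than in replicates 2 and 3. Of 12 fibroblast markers 10 were measured, and their summed level was 13100 to 13600 CPM in siCtrl and 10900 to 11500 CPM in siAldoa, with 4 markers called higher and 4 lower. Most of this sum came from Col1a2, Vim and Col1a1 (means of 4949, 3731 and 3196 CPM in siCtrl), all called lower. The 4 called higher were Thy1, Pdgfra, Pdgfrb and Fn1. Summed levels of the epithelial (4 of 8 measured), leukocyte (6 of 8), endothelial (5 of 6) and muscle (2 of 6) markers were 6.85 to 11.2, 18.3 to 25.2, 10.4 to 11.6 and 3.97 to 6.02 CPM in siCtrl, and 1.83 to 4.28, 25.9 to 28.5, 6.15 to 9.45 and 2.88 to 7.22 CPM in siAldoa. Of these, the epithelial markers Cdh1 and Krt8 were called lower and the leukocyte marker Cd14 higher (limma adjusted p = 0.00715, 0.0452 and 0.00862; with DESeq2, 0 epithelial markers), and no endothelial or muscle marker was called, with 2 endothelial markers and 0 muscle markers at an unadjusted p under 0.05 and 0 of either by edgeR or DESeq2. The part of these differences in the results below was not tested.

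Arrdc4 was about 4 times as abundant in siAldoa as in siCtrl, whereas the 95% intervals of the log2 fold changes of Arrdc3, Arrdc2, Arrdc1, Mlxip and Mlx all included 0. Arrdc4 (ENSMUSG00000042659) encodes an α-arrestin that, like the Txnip protein, reduces glucose uptake, and its position in GRCm38 (the mm10 build, as for all positions here) is chromosome 7, 68736995 to 68749241, minus strand. It was measured at 12.6, 12.6 and 15.3 CPM in siCtrl replicates 1, 2 and 3 and at 54.2, 51.6 and 58.1 CPM in siAldoa replicates 1, 2 and 3. All siAldoa libraries lay above all siCtrl libraries, with a gap between the groups wider than the range of either. In reads, these values were 46, 46 and 58 in siCtrl and 201, 193 and 222 in siAldoa.

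Means for Arrdc4 were 13.5 ± 1.59 CPM without and 54.7 ± 3.29 CPM with the knockdown (SD, n = 3), a ratio of 4.04. On the log2(CPM + 1) scale, on which all log2 fold changes here are given, the difference was 1.94 (standard error 0.11, 95% interval 1.71 to 2.18). By replicate number it was 2.02, 1.95 and 1.85, and with libraries left out it stayed between 1.90 and 2.03. Arrdc4 ranked 5 from the top of all 18001 genes by this measure. The threshold of the choice lay between Prl2c5, at rank 10 with 1.66, and Slc6a12, at rank 11 with 1.64. No other gene's transcripts were at least 90% identical to those of Arrdc4 over 200 bases, and no annotated gene overlaps it.

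**Figure D2:**
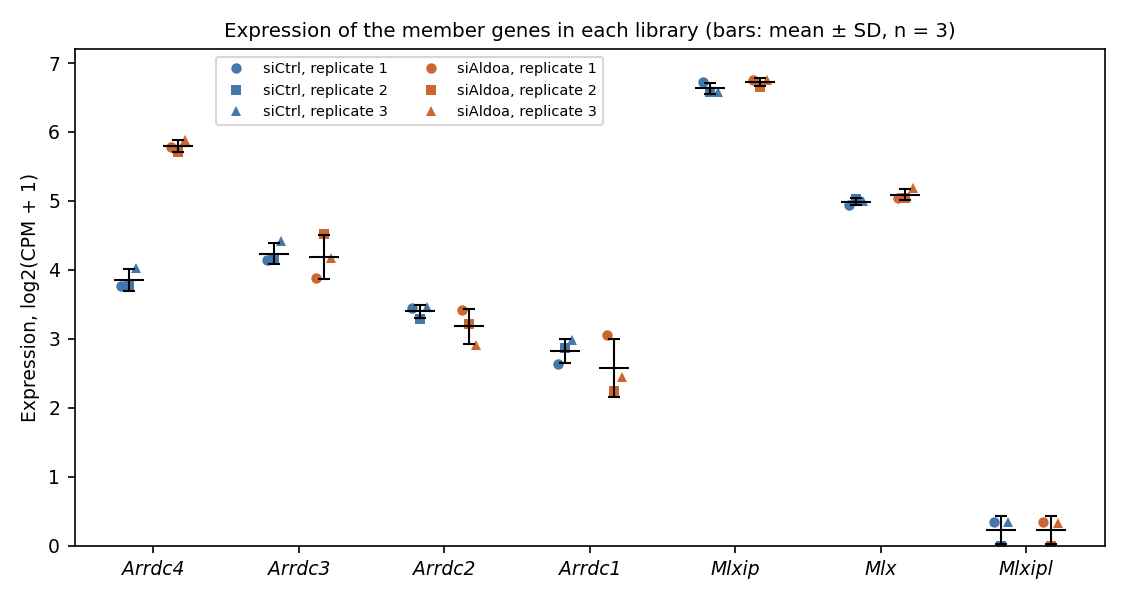
Expression of the 7 genes in every library on the log2(CPM + 1) scale, with siCtrl in blue, siAldoa in orange, a marker shape for each replicate number and bars for the mean ± SD (n = 3). The groups are far apart for Arrdc4 (13.5 against 54.7 CPM), lie close together without overlap for Mlx, and overlap for the other genes.

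The other α-arrestin genes did not share this difference. Arrdc3, whose product is known as an adaptor for β2-adrenergic receptor ubiquitination, lies on chromosome 13 from 80883384 to 80896042 on the plus strand. It was at 16.7, 16.7 and 20.4 CPM in siCtrl and at 13.8, 21.9 and 17.02 CPM in siAldoa. The siAldoa libraries held both the lowest and the highest Arrdc3 value, and the means of 17.9 ± 2.12 and 17.6 ± 4.10 CPM (SD, n = 3) differed by less than either spread. The log2 fold change of Arrdc3 was -0.045 (standard error 0.16), with an interval from -0.37 to 0.28.

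Arrdc2 (chromosome 8, 70835129 to 70839720, minus strand) was at 9.86, 8.75 and 10.1 CPM in siCtrl and at 9.71, 8.29 and 6.55 CPM in siAldoa. Its groups overlapped, and the log2 fold change of -0.21 (standard error 0.19, 95% interval -0.61 to 0.19) came mostly from replicate 3, whose difference was -0.55 against -0.019 and -0.071 in replicates 1 and 2. Arrdc1, whose product recruits the budding machinery of extracellular vesicles to the plasma membrane, lies on chromosome 2 from 24925352 to 24935252 on the minus strand.
Arrdc1 was at 5.20, 6.29 and 6.88 CPM in siCtrl and at 7.29, 3.74 and 4.45 CPM in siAldoa, on 14 to 27 reads per library. Replicate 1 was higher in siAldoa and replicates 2 and 3 were lower, so that the groups overlapped. The log2 fold change of Arrdc1 was -0.24 (standard error 0.24, 95% interval -0.74 to 0.26), and without replicate 1 of both groups it was -0.58.

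Txnip (chromosome 3, 96557957 to 96561883, plus strand), which encodes the thioredoxin-interacting protein, was not analysed here. The antisense gene Gm15441, which covers the locus on the other strand, had 0 to 9 reads per library.

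Transcript levels of the sensing factors themselves differed little between the groups. Mlxip (chromosome 5, 123394798 to 123457932, plus strand), which encodes MondoA, was at 105.2, 94.92 and 94.98 CPM in siCtrl and at 107.1, 99.96 and 107.4 CPM in siAldoa. The groups overlapped, and the means were 98.4 ± 5.91 and 104.8 ± 4.21 CPM (SD, n = 3). The log2 fold change of Mlxip was 0.09 (standard error 0.062), and its interval from -0.037 to 0.22 does not reach a change of the size of that of Arrdc4.

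Mlx (chromosome 11, 101087277 to 101092207, plus strand), the shared dimerization partner, was at 29.6, 31.7 and 31.0 CPM in siCtrl and at 31.8, 32.1 and 35.4 CPM in siAldoa. The siAldoa libraries were all above the siCtrl libraries, by a narrow margin, and the log2 fold change was 0.10 (standard error 0.099, 95% interval -0.10 to 0.31). The groups did not overlap for 33.8% of all genes, and 16.7% had all siAldoa libraries above; in the set this held for 2 of 7, Arrdc4 and Mlx. Mlx overlaps Psmc3ip, on the opposite strand, by 385 bases, and Psmc3ip was at 15.7 ± 1.09 and 9.56 ± 3.34 CPM in siCtrl and siAldoa (SD, n = 3). Whether strand was used in counting is not given in the sources used here, so reads in the overlap cannot be assigned to either gene with certainty. Mlxipl (chromosome 5, 135089890 to 135138382, plus strand), which encodes ChREBP, had 1, 0 and 1 reads in siCtrl and 1, 0 and 1 reads in siAldoa, which is at or under the limit that a count of 0 allows.

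By limma with an adjusted p-value under 0.05, 1 of the 7 genes was called higher, Arrdc4, and 0 lower (also 0 at an unadjusted p under 0.05, by edgeR and by DESeq2), beside 10.4% of the 18001 genes called higher and 10.0% called lower. As the comparison was used for the choice of the set, nothing is read from this count.

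**Figure D3:**
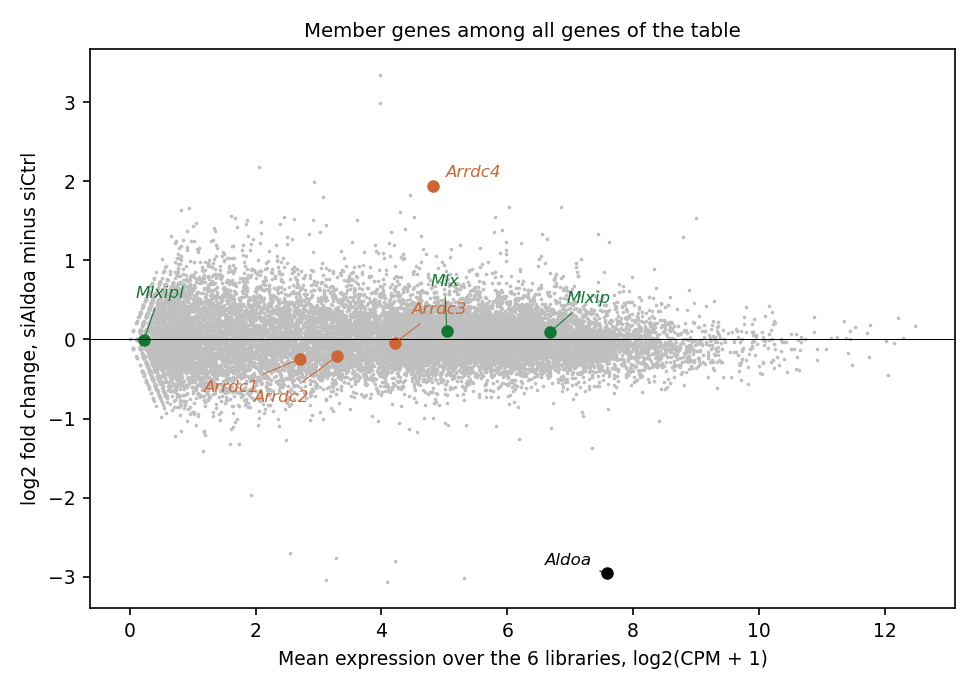
Log2 fold change (siAldoa minus siCtrl) against mean log2(CPM + 1) over the 6 libraries for all 18001 genes in grey, with α-arrestin genes in orange, sensing factors in green and Aldoa in black. Arrdc4 lies at 1.94, apart from most genes of its level, and the other 6 genes lie between -0.25 and 0.11.

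Divided by the union length of the exons, the genes could be ranked by level. In siCtrl the order in CPM per kilobase was Mlx (15.4 ± 0.545), Mlxip (11.8 ± 0.709), Arrdc4 (3.34 ± 0.394), Arrdc2 (2.96 ± 0.217), Arrdc3 (2.86 ± 0.339), Arrdc1 (2.44 ± 0.339) and Mlxipl (0.0324). The ranges of Arrdc2 and Arrdc3 and those of Arrdc3 and Arrdc1 overlapped, and Arrdc4 was separated from Arrdc2 only by 3.12 against 3.11. In siAldoa the level of Arrdc4 was 13.5 ± 0.815 CPM per kilobase (SD, n = 3), between Mlx (16.6 ± 0.981) and Mlxip (12.6 ± 0.506), and its range overlapped that of Mlxip. Arrdc3, Arrdc2 and Arrdc1 followed with 2.80, 2.53 and 2.06 CPM per kilobase, each overlapping its neighbour in the order. The 4 α-arrestin transcripts were thus within 2.44 to 3.34 CPM per kilobase in control cells, and only Arrdc4 was at another level in siAldoa.

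**Figure D4:**
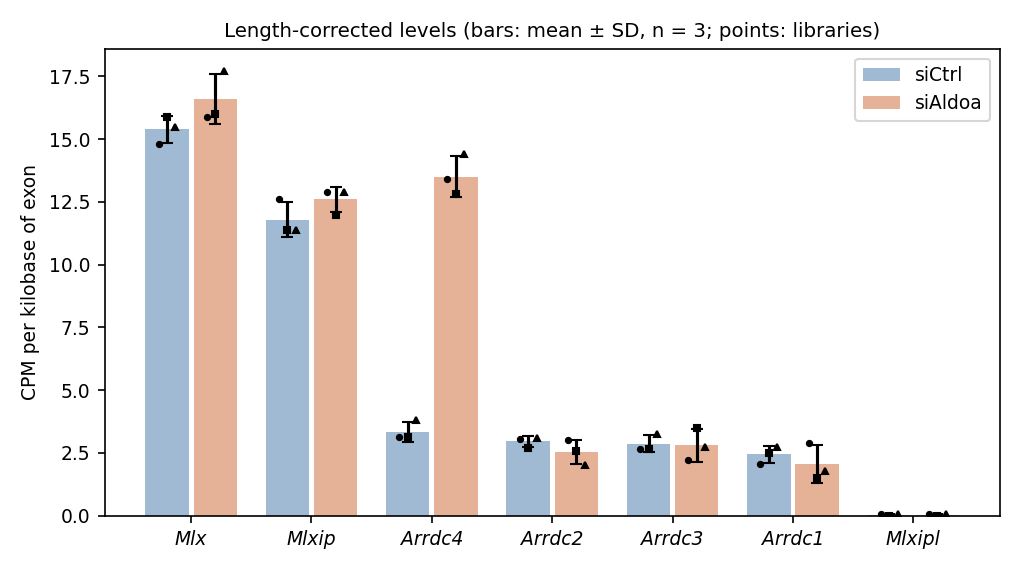
Levels of the 7 genes in CPM per kilobase of exon, with bars for the mean of 3 libraries, error bars for the SD and points for the libraries. Arrdc4 is at 3.34 in siCtrl, near the other α-arrestin genes, and at 13.5 in siAldoa, near Mlxip.

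The 5 genes whose profile over the 6 libraries was most like that of Arrdc4 (mean of at least 5 CPM, smallest root mean square difference of centred log2(CPM + 1) values) were Gm12138, Gxylt2, Col20a1, Dusp1 and Igfbp7. Their root mean square differences from Arrdc4 were 0.188, 0.191, 0.207, 0.21 and 0.214, against 0.926 to 1.12 for the other genes of the set. Igfbp7, which encodes a secreted binding protein of insulin-like growth factors, was at 10.7 ± 1.88 CPM in siCtrl and 40.3 ± 3.87 CPM in siAldoa (SD, n = 3). Dusp1, a dual-specificity phosphatase that inactivates MAP kinases, was at 31.7 ± 2.31 CPM in siCtrl and 94.5 ± 6.42 CPM in siAldoa. Since Arrdc4 was chosen for its difference between the groups, genes picked for a like profile are higher in siAldoa by that choice, and their values are a description. Col20a1 passed the minimum through siAldoa, with 3.52 CPM in siCtrl and 14.7 CPM in siAldoa.

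Other genes reported in the literature as MondoA or ChREBP targets changed in both directions: 6 of the 17 measured (21 named) rose and 5 fell, beside 10.4% and 10.0% of all genes, with a median log2 fold change of 0.21 beside -0.0023 over all genes. Klf11, a Krüppel-like repressor, was at 3.56, 2.74 and 4.50 CPM in siCtrl and at 11.3, 10.4 and 9.69 CPM in siAldoa. All its siAldoa libraries lay above, and groups without overlap were a condition for naming it. Klf11 rose by 1.34 on the log2(CPM + 1) scale (standard error 0.22, limma adjusted p = 7.69e-05), on this scale the nearest to Arrdc4 in this list. With a pseudocount of 0.1, Fgf21 (1.99) and Rgs16 (1.74), both on few reads, rose more than Klf11 (1.54). Hbp1, which encodes an HMG-box repressor, rose by 0.72 (standard error 0.22, limma adjusted p = 0.0197), from 5.49 ± 1.27 to 9.59 ± 1.65 CPM (SD, n = 3). It passed the threshold by edgeR (edgeR adjusted p = 0.0104) but not by DESeq2 (DESeq2 adjusted p = 0.0789). Rgs16, a regulator of G protein signalling, had 1, 1 and 2 reads in siCtrl and 4, 7 and 5 in siAldoa, and Fgf21, a hormone of nutrient stress, had 4, 2 and 0 reads in siCtrl and 6, 6 and 6 in siAldoa.
Both passed the threshold by limma (adjusted p = 0.0262 for Rgs16 and 0.0458 for Fgf21) on few reads, and neither did by edgeR. With 1 library left out at a time, the call of Klf11 stayed, while that of Hbp1 ended without any library other than siCtrl replicate 3 (limma adjusted p = 0.0517 to 0.13), that of Fgf21 without any other than siCtrl replicate 1 (0.103 to 0.236) and that of Rgs16 without siCtrl replicates 1 or 2 or siAldoa replicates 2 or 3 (0.0591 to 0.106).

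The members of this list that fell are enzymes of lipid synthesis and of the pentose phosphate pathway. Other lipid synthesis genes of the list, Fasn, Acacb and Scd1, named after their values were seen, were not called (limma adjusted p = 0.925, 0.529 and 0.205). Elovl6, a fatty acid elongase, fell by 0.66 on the log2 scale (standard error 0.056, limma adjusted p = 6.21e-09), from 188.9 ± 7.64 to 119.4 ± 7.70 CPM (SD, n = 3). Scd2, a stearoyl-CoA desaturase, fell by 0.32, Acly, the ATP citrate lyase, by 0.20, and Tkt, the transketolase of the pentose phosphate pathway, by 0.19 (limma adjusted p = 5.33e-08, 0.000935 and 0.00586). Every siAldoa library was below every siCtrl library for these 4 genes, as for 17.1% of all genes. Groups without overlap were a condition for naming them, so nothing is read from this. Klf10 (log2 fold change 0.56), Bhlhe40 (0.42) and Acaca (-0.16), named after their values were seen, were the other calls of this list. The calls of Elovl6, Scd2, Acly and Klf10 stayed with any 1 library left out. That of Tkt ended without siCtrl replicate 3 or siAldoa replicates 1 or 2 (limma adjusted p = 0.0526 to 0.0823), that of Bhlhe40 without siCtrl replicate 1 or siAldoa replicates 2 or 3 (0.0537 to 0.111), and that of Acaca without any of the 6 (0.053 to 0.116).

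Genes of glucose uptake and hexose phosphate steps rose in 8 of 23 measured (27 named), beside 10.4% of all genes, with a median log2 fold change of 0.22. By limma 0 fell, against 1 at an unadjusted p under 0.05, 1 by edgeR and 0 by DESeq2, and that gene was Pfkfb1, named after its values were seen (log2 fold change -0.59, limma adjusted p = 0.0578, and 0.0345 to 0.259 over the alternatives). Slc2a1, the GLUT1 transporter that α-arrestins are known to remove from the cell surface, was at 70.4, 66.2 and 77.5 CPM in siCtrl and at 115.0, 108.8 and 109.4 CPM in siAldoa. The groups were far apart, and Slc2a1 rose by 0.63 on the log2 scale (standard error 0.067, limma adjusted p = 1.85e-07). Pfkfb3, which makes the phosphofructokinase activator fructose 2,6-bisphosphate, rose most in the list, by 0.69 (standard error 0.16, limma adjusted p = 0.00201).
Hk2, a hexokinase that forms glucose 6-phosphate, rose by 0.47, and Gfpt1, the entry enzyme of the hexosamine pathway, rose by 0.44 (limma adjusted p = 0.000109 and 5.48e-06).

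**Figure D5:**
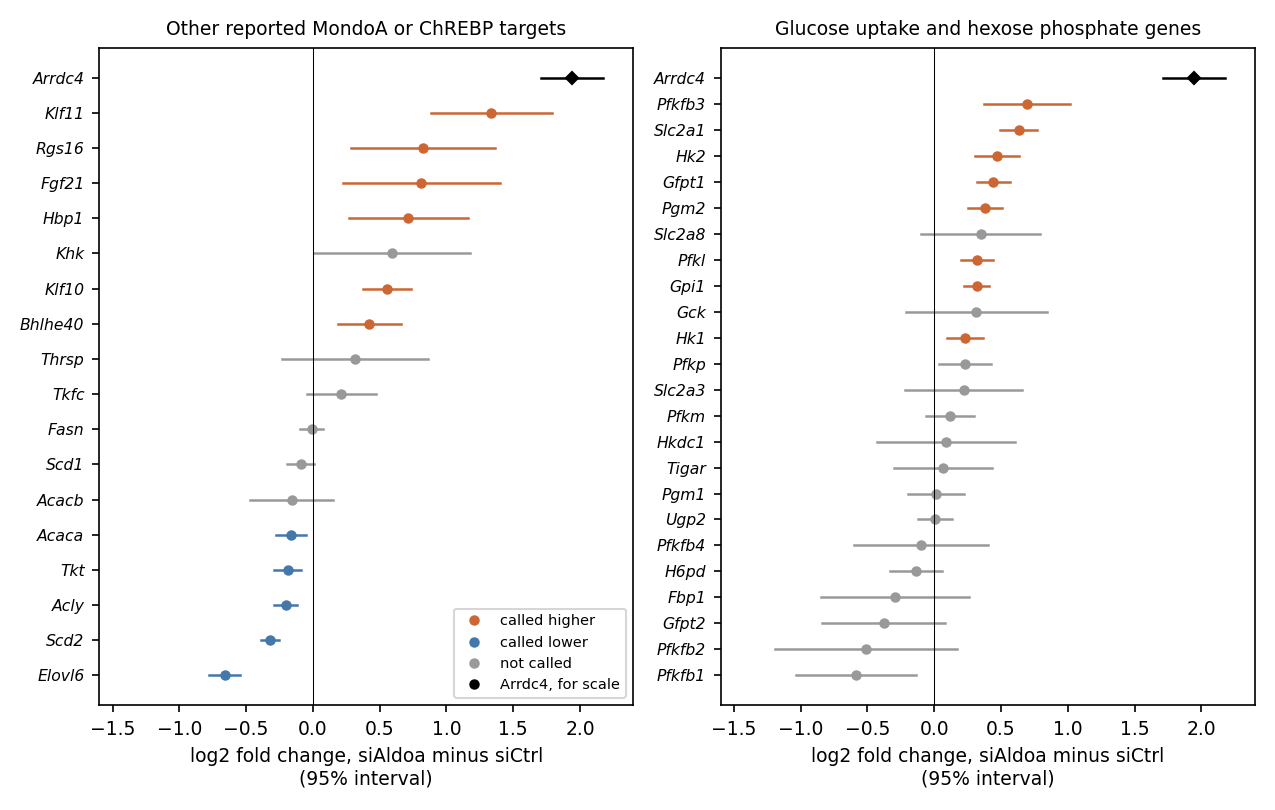
Log2 fold changes (siAldoa minus siCtrl) with 95% intervals of the other reported MondoA or ChREBP targets (left) and of the genes of glucose uptake and hexose phosphate steps (right), with Arrdc4 in black for scale. Called genes are in orange (higher) and blue (lower): 6 and 5 on the left, 8 and 0 on the right.

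Of the 22 genes called higher over these lists and those below, 19 had a RefSeq promoter window, and the E-box was in 4, those of Klf11, Pfkfb3, Fgf21 and Mxd4, printed above. Of the 11 genes called lower, 8 had a window, and 0 of these genes had an E-box. Among windows of genes in the table, 9.25% held an E-box. That share is per window, whereas the genes above were counted if any of their windows held an E-box. These matches are letters in a window, and binding was not measured here.

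The partners of Mlx or of Max also bind E-boxes, and Max itself was counted among them. Of 8 measured (9 named), 2 rose and 1 fell, beside 10.4% and 10.0% of all genes, with a median log2 fold change of 0.10. Mxi1, a repressor that dimerizes with Max, passed the threshold (0.36, standard error 0.11, limma adjusted p = 0.0163). So did Mxd4, a repressor that dimerizes with Max or Mlx (0.36, standard error 0.13, limma adjusted p = 0.0445). Neither did with DESeq2. The call of Mxi1 ended without siCtrl replicates 1 or 2 or siAldoa replicates 2 or 3 (limma adjusted p = 0.0588 to 0.161), and that of Mxd4 without any library other than siCtrl replicate 3 (0.0848 to 0.247). Myc, which dimerizes with Max, fell by 0.29 (standard error 0.055, limma adjusted p = 0.000404), from 169.9 ± 6.58 to 138.8 ± 8.63 CPM (SD, n = 3). Mnt, another partner of Mlx, was at 60.2 ± 3.11 and 59.4 ± 6.20 CPM.

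In the thioredoxin system 1 of 14 genes rose and 3 fell, beside 10.4% and 10.0% of all genes, with a median log2 fold change of -0.037. Of this system, the Txnip protein is known to bind thioredoxin itself. Txn1, the cytosolic thioredoxin, was at 462.1, 471.1 and 497.7 CPM in siCtrl and at 389.4, 379.8 and 372.6 CPM in siAldoa. All its siAldoa libraries were lower, and it fell by 0.32 on the log2 scale (standard error 0.039, limma adjusted p = 1.43e-06). Txnrd3, a thioredoxin reductase, fell by 0.49 and Prdx3, the mitochondrial peroxiredoxin, by 0.34 (limma adjusted p = 0.00512 and 3.29e-05), whereas Srxn1, the sulfiredoxin that restores oxidized peroxiredoxins, rose by 0.39 (limma adjusted p = 3.68e-06). Without siCtrl replicate 3 the limma adjusted p of Txnrd3 was 0.0628.

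Among the NEDD4-family ubiquitin ligases, which α-arrestins recruit through their PY motifs, 3 of 9 rose and 2 fell, beside 10.4% and 10.0% of all genes, with a median log2 fold change of -0.017. Smurf1 rose by 0.32 (standard error 0.055, limma adjusted p = 0.000121), Itch by 0.22 and Smurf2 by 0.17 (limma adjusted p = 0.0255 and 0.0198). Nedd4, the most abundant transcript of the family in CPM, was at 1097 ± 9.51 and 1084 ± 8.15 CPM in siCtrl and siAldoa (SD, n = 3). Hecw2 fell by 0.32 (limma adjusted p = 0.0288), and Hecw1 was called lower on 6, 4 and 1 reads in siCtrl and 0, 0 and 1 in siAldoa (limma adjusted p = 0.0431). With DESeq2 only Smurf1 passed the threshold in this family, and Hecw1 had no adjusted p-value there. The calls of Itch and Hecw2 ended without any of 4 libraries (Itch: siCtrl replicates 2 and 3 and siAldoa replicates 1 and 2, limma adjusted p = 0.0698 to 0.116, Hecw2: siCtrl replicates 1 and 2 and siAldoa replicates 1 and 3, 0.0621 to 0.126). That of Smurf2 ended without siCtrl replicates 1 or 3 or siAldoa replicates 1 or 2 (0.062 to 0.093), and that of Hecw1 without any library other than siCtrl replicate 3 (0.0759 to 0.213).

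Of the other genes with an arrestin fold, 2 of 6 measured (7 named) rose, beside 10.4% of all genes, with a median log2 fold change of 0.20, and 0 fell by limma, at an unadjusted p under 0.05, by edgeR or by DESeq2. Vps26b, a retromer subunit, rose by 0.30 (standard error 0.072, limma adjusted p = 0.0034) and Rgp1, a subunit of an exchange factor for Rab6, by 0.29 (standard error 0.098, limma adjusted p = 0.0351), a call that was lost with DESeq2 and without any 1 of the 6 libraries (limma adjusted p = 0.0529 to 0.176). For the β-arrestin gene Arrb1 the difference of 0.31 (standard error 0.13, limma adjusted p = 0.0986) did not pass the threshold, and the mean CPM of Arrb2 in siAldoa was 101.2% of that in siCtrl.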

How the data were processed

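The 6 NIH/3T3 libraries (3 siCtrl, 3 siAldoa) were grouped by their labels. Per the methods and the submitters' processing notes, the authors aligned reads to mm10 with Bowtie2 (version 2.2.7), subsampled them to equal numbers and counted them per gene, and deposited CPM of an effective library size. Annotation release, strand use and multimapping are not given in the sources used here. A second deposited table with the authors' own comparison was not used. The table held 1834 genes under the stated minimum of 12 reads. All values (100%, tolerance 0.01) were whole multiples of 1 read, so reads were recovered. Subsampling evened the depth, and p-values measure the spread between these cultures, counting error included. Replicates 1 and 2 differed by little more than counting error (chi-square per degree of freedom 1.12 in siCtrl and 1.11 in siAldoa).

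The comparison used limma-trend (limma version 3.58.1 in R 4.3.3) on log2(CPM + 1). Tests were two-sided, and p-values were adjusted after Benjamini-Hochberg over 18001 genes (threshold 0.05). The pseudocount of 1 understates changes of low genes.  edgeR's quasi-likelihood test (version 4.0.16) and DESeq2 (version 1.42.0) on recovered reads called 3786 and 2183 genes, against 3676 with limma. The code was tested on simulated data. Positions and exon lengths came from GENCODE M21, in which 17932 identifiers were found, near copies from blastn (version 2.17.0) and promoters from RefSeq.

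The members and lists were chosen with earlier results of these data known. Named were the members, Aldoa, any gene of lists of at most 14 entries and the 5 genes most like Arrdc4. Of longer lists, up to 4 of the highest and 4 of the lowest called genes whose groups did not overlap were named. For Txnip the search for like genes was not done.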

Additional observations from a re-analysis of the deposited data

How the results depend on the processing

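Log2 fold changes of Arrdc4 (1.90 to 2.03 with libraries left out, 1.92 to 2.02 otherwise), Arrdc3, Arrdc2, Mlxip and Mlx moved by less than the spread between replicates under every alternative run. For Arrdc1, libraries left out gave -0.576 to -0.0569. With libraries left out, 1014 to 2813 genes were called, 494 to 1464 higher and 520 to 1371 lower. With a constant prior variance, that is without limma's trend, 1440 genes passed (824 higher, 616 lower), and with DESeq2 2183 (1066 higher, 1117 lower), against 3676. Deviations of same-numbered libraries correlated at 0.0397, 0.0396 and 0.207 over 8271 genes for replicates 1, 2 and 3. The highest correlation was thus that of the replicate 3 libraries. Deviations from a group mean sum to 0, so the values of siCtrl replicate 3 with siAldoa replicates 1 and 2 (-0.142 and -0.0795) add nothing to it. For replicates 1 and 2 the correlations showed no pairing by number, as siCtrl replicate 2 correlated best with siAldoa replicate 1 (0.125). Such weak values cannot tell how the cultures were handled. With the replicate block 3170 genes were called (1611 higher, 1559 lower). With this block 1 other arrestin-fold gene rose, 0 partners of Mlx or Max rose and 1 NEDD4-family ligase fell, instead of 2 each.

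Without that trend the lists had 0 arrestin-fold genes higher, 0 partners of Mlx or Max higher and 0 lower, and 1 ligase higher and 0 lower. They had 4 genes of glucose uptake and hexose phosphate steps higher and 1 lower, and 3 reported targets higher and 2 lower. With DESeq2 there were 1 arrestin-fold gene, 0 partners, 1 ligase and 3 reported targets higher, and 0 ligases lower; Rgs16, Fgf21 and Hecw1 had no adjusted p there. Quantile normalization gave 1 arrestin-fold gene and 1 partner higher, 1 ligase lower and 1 hexose phosphate gene lower. A pseudocount of 0.1 gave 1 partner higher and 1 ligase lower. A filter above the lower quartile of mean CPM (13500 genes) gave 1 ligase and 1 hexose phosphate gene lower, and edgeR 1 hexose phosphate gene lower. With libraries left out, calls higher and lower ranged from 0 to 2 and stayed at 0 (arrestin-fold), 0 to 2 and 0 to 1 (partners), 0 to 1 and 1 to 3 (thioredoxin), 1 to 3 and 0 to 2 (ligases), 5 to 8 and stayed at 0 (hexose phosphate) and 2 to 5 and 2 to 4 (reported targets). Leaving out libraries leaves fewer samples, and for the other settings the cause was not tested. At this depth Mlxipl was not measurable, and Arrdc1 and the few-read targets rest on 0 to 27 reads per library.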
